A study of Mus musculus with 4 samples.

Results

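P4-ATPases are membrane pumps, called flippases, that use ATP to move phospholipids from the outer to the inner leaflet of a membrane. The genes described here are Atp8a1, Atp8a2, Atp9a, Atp9b, Atp10a, Atp11a and Atp11b, and Tmem30a, which encodes the subunit that most P4-ATPases need to leave the endoplasmic reticulum. They were taken by symbol from the deposited gene lists, which hold 32285 genes. Of 9 genes listed, 8 had a row, and Atp10d was not analysed here.

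Flippases keep the aminophospholipids phosphatidylserine and phosphatidylethanolamine (PE) on the inner side of the plasma membrane, and scramblases undo this asymmetry. Phosphatidylserine on the outer leaflet is a known signal for microglia to engulf a cell or a synapse, and curvature made by flippases helps vesicles to bud from endosomes and the Golgi. ATP8A and ATP11 proteins mainly move phosphatidylserine, with PE as a weaker substrate for several of them, ATP10A moves phosphatidylcholine, and the ATP9 proteins work on endosomes and the trans-Golgi network without a TMEM30 subunit. In the brain, loss of Atp8a2 is known to cause degeneration of axons.

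The data were single-nucleus RNA counts from brains of female 5XFAD mice aged 7 to 10 weeks, which carry human transgenes with familial Alzheimer's disease mutations, expressed in neurons from the Thy1 promoter. All mice received engineered extracellular vesicles (EVs). The paper describes them as rebuilt from the lipids of fat cell vesicles of chow-fed mice, without the proteins and nucleic acids, and with transferrin attached. PE was added to make the PE-high vesicles, and the paper calls the dosing chronic. Its methods give injection into a vein for EVs in 5XFAD mice, while its imaging of engineered EVs in wild-type mice used intraperitoneal injection. The vesicles were low in PE in 1 group (PE-low EV) and high in PE in the other (PE-high EV), with 2 libraries per group and 2 mice pooled in each library. Mice given saline and mice without the transgenes were not analysed here, so every value comes from a treated 5XFAD brain.

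Unique molecular identifiers (UMIs) count RNA molecules. All sets of 4 values below give both PE-low EV libraries first and then both from PE-high EV, each by replicate number. In this order the kept nuclei numbered 10291, 7605, 10074 and 9544 and held 18909342, 17789777, 14093188 and 13984428 UMIs. Pairs of libraries shared between 27 and 53 barcodes of called nuclei, at most 0.446% of a library. Of 37514 kept nuclei, 32852 were placed in classes by clustering without the genes described here, and 4662 stayed unnamed. The classes were named from markers, so each is a likeness ("oligodendrocyte" stands for oligodendrocyte-like nuclei). There were 11 broad and 21 fine classes with enough nuclei in every library. Excitatory neurons that no set of layer markers named are called by their leading gene (Il1rapl2, Ndst4, Nxph1 or Rxfp1), as are the striatal neurons led by Zfp521. The mean level of the defining markers was higher in the class than over all kept nuclei for every marker listed of the glial and endothelial classes. C3 was barely detected in microglia (0.854 CPM), and Lamp5 was lower in inhibitory neurons (38.2 CPM) than over all kept nuclei (44.8 CPM). The same markers named the classes, so these levels are not a separate check. Levels are CPM, the UMIs of a gene scaled to a common total of UMIs for each class and library, as mean ± SD over the 4 libraries. Intronic sequence length and priming sites differ between genes, so levels were compared between classes within a gene and never between genes.

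The library of PE-low EV replicate 1 stood apart, most clearly in its endothelial nuclei. The summed level of 6 interferon response genes there (Cxcl10, Gbp5, Rsad2, Iigp1, Ifit1 and Slfn5) was 372, 29164, 22589 and 24726 CPM. The sum was lowest in this library in every broad class tested. It was 28.3, 557, 263 and 133 CPM in microglia and 8.02, 48.5, 54.4 and 49.6 CPM in astrocytes. This library is part of the PE-low EV group in the treatment tests of all classes. The endothelial class was made of 3 clusters. The cluster led by Slco1a4 held 189, 9, 11 and 12 nuclei, and both clusters led by Cxcl10 together held the others, with only 1 nucleus from PE-low EV replicate 1. The main differences of members between endothelial nuclei and other classes, and the treatment difference of Atp10a there, are therefore also given without this library. Free RNA was a second limit. Barcodes too poor in UMIs to hold a nucleus (near-empty barcodes) gave the profile of RNA outside nuclei, which was estimated to make up, on average over the libraries, 13.9% to 26.2% of the UMIs of the neuronal classes and 27.1% to 48.0% of those of the other classes.

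Promoter windows are shown for Atp10a, whose highest class was endothelial nuclei, for Atp8a1 and Atp11a, which had oligodendrocytes as their highest class, and for the subunit gene Tmem30a (RefSeq, GRCm38.p6, 250 bases before to 50 bases after the start, read along the strand of the gene). Capitals mark the GC box letters GGGCGG, or CCGCCC on the other strand. Atp10a lies on the plus strand of chromosome 7, and its window is chr7:58657952-58658251, inside the gene span of the GENCODE annotation.
Atp10a: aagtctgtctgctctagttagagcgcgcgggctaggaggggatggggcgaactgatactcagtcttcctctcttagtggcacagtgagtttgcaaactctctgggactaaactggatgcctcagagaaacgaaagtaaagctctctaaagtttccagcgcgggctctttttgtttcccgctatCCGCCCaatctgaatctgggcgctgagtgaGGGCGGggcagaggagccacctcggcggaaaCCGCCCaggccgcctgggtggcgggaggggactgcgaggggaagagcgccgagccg
Atp8a1 lies on the minus strand of chromosome 5, and its window is chr5:67847382-67847681.
Atp8a1: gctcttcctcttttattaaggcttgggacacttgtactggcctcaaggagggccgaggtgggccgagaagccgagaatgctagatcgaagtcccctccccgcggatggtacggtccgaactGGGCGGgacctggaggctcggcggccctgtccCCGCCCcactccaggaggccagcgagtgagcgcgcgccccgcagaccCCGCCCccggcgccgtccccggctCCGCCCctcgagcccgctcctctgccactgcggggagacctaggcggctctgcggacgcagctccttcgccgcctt
Atp11a lies on the plus strand of chromosome 8, and its window is chr8:12756766-12757065.
Atp11a: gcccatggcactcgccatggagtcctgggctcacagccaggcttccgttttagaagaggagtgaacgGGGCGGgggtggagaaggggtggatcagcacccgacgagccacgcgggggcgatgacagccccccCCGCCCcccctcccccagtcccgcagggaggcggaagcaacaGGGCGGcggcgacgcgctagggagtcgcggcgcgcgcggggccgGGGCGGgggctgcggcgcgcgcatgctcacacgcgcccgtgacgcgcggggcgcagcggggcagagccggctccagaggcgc
Tmem30a lies on the minus strand of chromosome 9, and its window is chr9:79793381-79793680.
Tmem30a: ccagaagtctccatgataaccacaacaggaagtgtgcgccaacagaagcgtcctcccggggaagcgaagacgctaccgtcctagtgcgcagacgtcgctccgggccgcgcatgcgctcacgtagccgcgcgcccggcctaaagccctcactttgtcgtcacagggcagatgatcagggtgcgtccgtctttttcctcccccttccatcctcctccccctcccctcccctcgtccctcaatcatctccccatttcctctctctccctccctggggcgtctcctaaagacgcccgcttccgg
The windows held 20 (Atp10a), 31 (Atp8a1), 39 (Atp11a) and 26 (Tmem30a) CpG dinucleotides, against a median of 7 over all 32851 windows of the table. The GC box letters matched 3 times in Atp10a, 4 times in Atp8a1, 4 times in Atp11a and 0 times in Tmem30a, and 35.7% of all windows held at least 1 match. The letters TATAAA, or TTTATA on the other strand, were in none of the 4 windows and in 13.6% of all windows. These matches describe the letters only.

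Tests between classes used UMIs summed per library and class (edgeR, quasi-likelihood test, with the library as a covariate), gave a fitted difference on the log2 scale ± SE, and were called at a Benjamini-Hochberg adjusted p under 0.1 over all 12736 genes tested. A class's sum reflects the mean over its nuclei, and in the sums over all nuclei fewer cells of a type and less RNA per cell cannot be told apart. Nothing in the labels says that the pooled brains of a group came from separate experiments, and p-values measure the spread between these libraries. Among the 210 pairs of fine classes, 35.6% of all gene tests were called. The shares of called pairs were 79.0% for Atp8a1, 82.4% for Atp8a2, 66.7% for Atp11b, 63.8% for Atp9b, 55.7% for Atp10a, 49.0% for Atp11a, 39.5% for Atp9a and 33.8% for Tmem30a. Atp9a and Tmem30a were thus near the share over all genes, and the others were above it. Between classes that were neighbours in the order of a member's CPM, 24 of 160 differences were called, against 33.4% of all gene tests in the contrasts used, so most neighbours in the orders below were not separated by the test. In 3 of the 24, for Atp8a1 and Atp9b and each with microglia or neuroblasts on the higher side by CPM, the fitted difference ran against the CPM order.

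**Figure D1:**
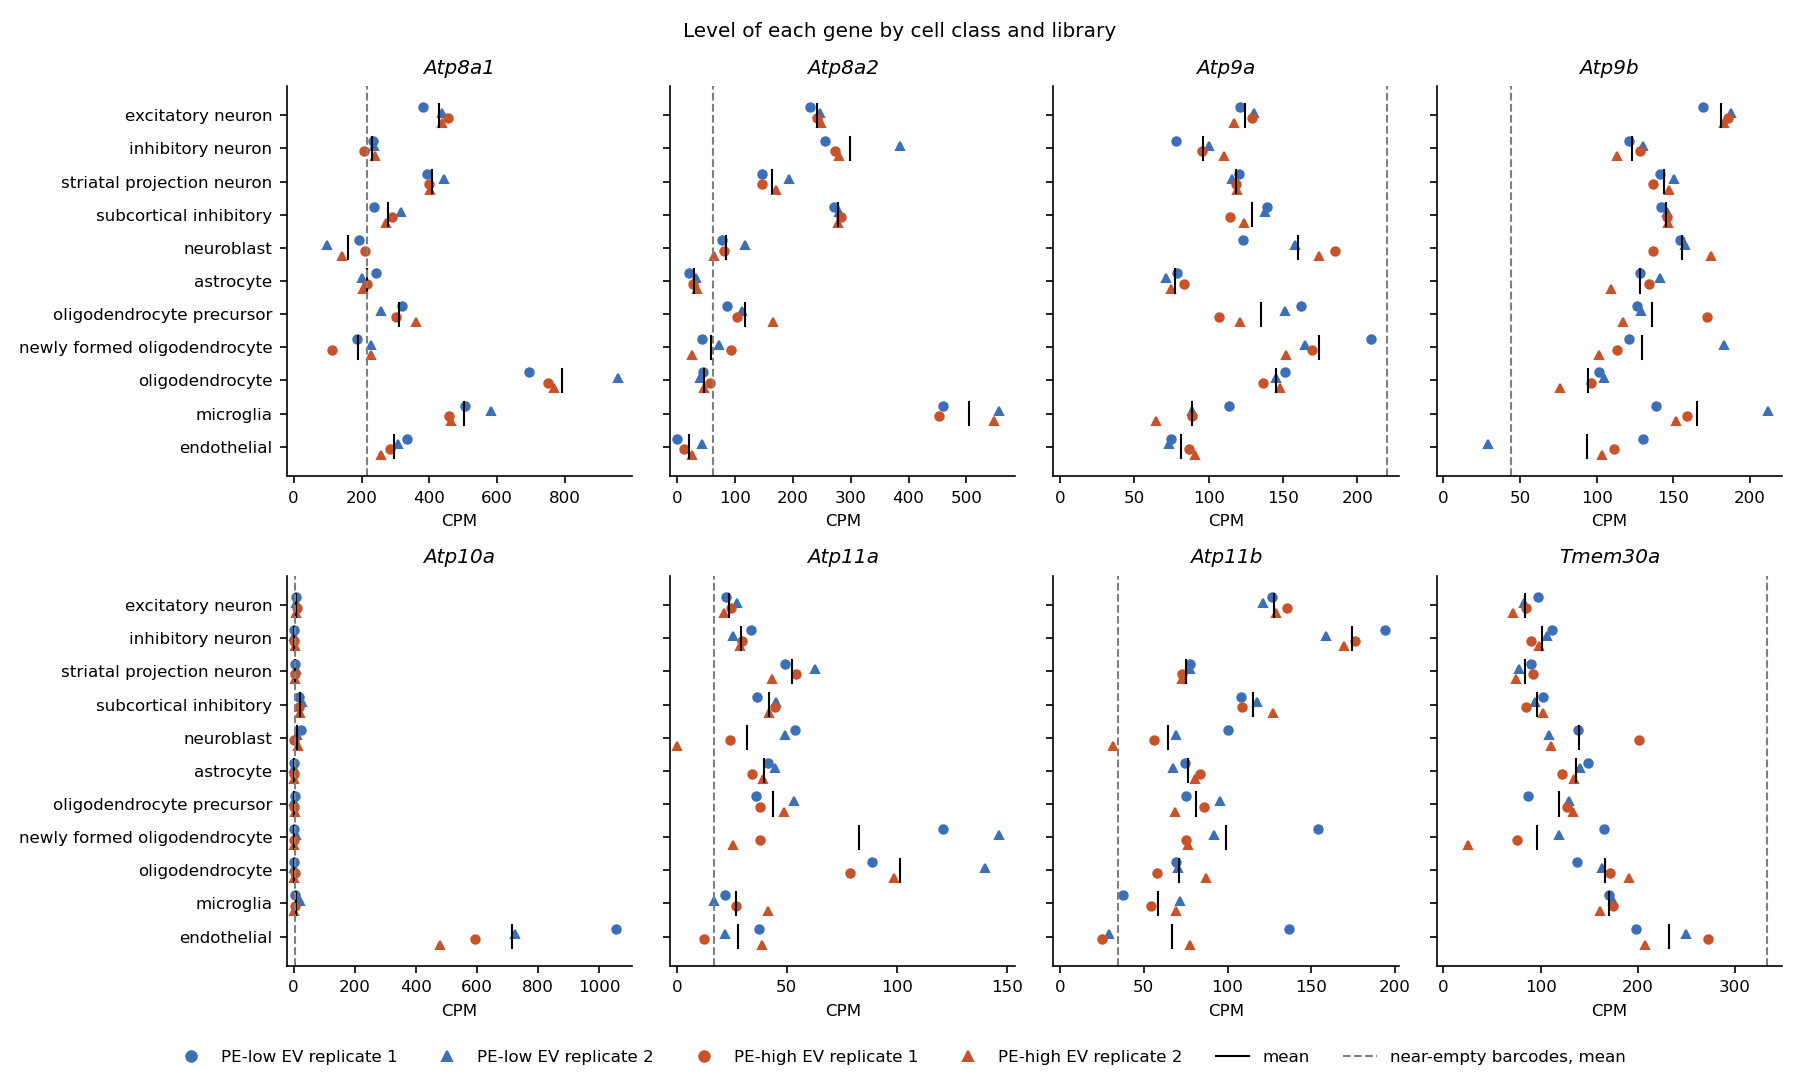
Level of each of the 8 genes in the 11 broad classes, in CPM on a linear axis that starts near 0, 1 panel per gene. Points are the 4 libraries (circles and triangles for replicates 1 and 2, blue for PE-low EV and orange for PE-high EV), black bars are means and dashed lines are the mean in near-empty barcodes. Atp10a stood at 479 to 1055 CPM in endothelial nuclei and near the dashed line in most other classes, and the dashed lines of Atp9a and Tmem30a lay above the mean of every class.

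Atp8a1, a flippase of phosphatidylserine found on endosomes and the plasma membrane (chr5:67618140-67847434, minus strand, GRCm38), was highest in oligodendrocytes, the cells that make myelin. Its level there was 693, 954, 748 and 766 CPM (790 ± 114). The next classes were excitatory neurons led by Ndst4 at 446, 528, 543 and 530 CPM, excitatory neurons led by Il1rapl2 at 503 ± 29.1 CPM and microglia at 504, 581, 457 and 465 CPM. Every library's oligodendrocyte value was above its own value in each of the other 20 classes. Microglia had a CPM close to that of these neurons but lay below the Il1rapl2-led neurons in the scaled fit, where the difference of those neurons from microglia was 0.50 ± 0.10 (adjusted p = 7.23e-06), and below the Rxfp1-led neurons (-0.30 ± 0.11). Both of these differences rest on the scaling of the fit. Its factors averaged 1.26 for microglia, 0.88 for the Il1rapl2-led neurons and 0.92 for the Rxfp1-led neurons. The fitted difference of oligodendrocytes from the Ndst4-led neurons was 0.39 ± 0.09 (adjusted p = 5.44e-05), in a contrast where 61.3% of all genes were called. Low levels were found in layer 5 neurons (219 ± 17.9 CPM), astrocytes (216 ± 18.6), Sst and Pvalb interneurons (199 ± 13.3), newly formed oligodendrocytes (189 ± 54.5) and neuroblasts (161 ± 50.2). Near-empty barcodes held 218 ± 14.9 CPM, while free RNA was estimated at 13.9% of the UMIs of layer 5 neurons. With free RNA subtracted, oligodendrocytes were still the highest class (1144 CPM). The 3 genes whose mean log2 CPM over the 21 classes was most like it, among 12245 genes compared, were Mast3 (Pearson r = 0.819), Gm15478 (0.791) and Mbnl2 (0.735). Gm15478 overlaps Atp8a1 on the opposite strand, and reads of the pair cannot be told apart where counting ignores strand. Atp8a2 and Atp9b each overlap 1 other counted gene and Atp11a overlaps 2.

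Atp8a2, a phosphatidylserine flippase best known from neurons and photoreceptors (chr14:59638540-60197179, minus strand, GRCm38), had its highest mean level in microglia, the resident phagocytes of the brain. The microglial level was 460, 557, 453 and 548 CPM (504 ± 55.7), and near-empty barcodes held 61.9 ± 8.76 CPM. Layer 5 neurons followed at 303, 412, 310 and 382 CPM (352 ± 53.9), then Sst and Pvalb interneurons at 269, 380, 280 and 305 CPM (308 ± 49.9) and subcortical inhibitory neurons at 278 ± 4.88 CPM. The microglial libraries all lay above the layer 5 libraries on the CPM scale. The fitted difference between these classes was 0.07 ± 0.11 (adjusted p = 0.643, 55.5% of all genes called). This call depended on the scaling, since the scaling factors of the edgeR fit (TMM) were 1.26 for microglia and 0.91 for layer 5 on average. With totals that were not scaled, an alternative chosen after seeing the data, the difference was 0.55 (adjusted p = 1.45e-05), and with free RNA subtracted it was 0.59 (adjusted p = 0.000595). In the fit, microglia and layer 5 neurons were each above 19 of the other 20 classes. At the other end stood oligodendrocytes (47.7 ± 7.35 CPM), astrocytes (29.4 ± 6.34 CPM) and endothelial nuclei (0, 44.0, 12.4 and 25.9 CPM), all under the near-empty level. The 0 UMIs in endothelial nuclei of PE-low EV replicate 1 allow a level of up to 18.6 CPM (3 UMIs, counting error only). The genes with the most similar order were Smg1 (r = 0.944), Trpm2 (0.935) and Cers6 (0.905), and Smg1 and Trpm2 also had their highest mean in microglia.

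Atp11a, a plasma membrane flippase that caspases cleave in dying cells (chr8:12757014-12868728, plus strand, GRCm38), had its highest mean levels in oligodendrocytes and newly formed oligodendrocytes. Oligodendrocytes held 88.9, 140, 78.7 and 98.6 CPM (102 ± 26.9), and near-empty barcodes held 16.7 ± 2.54 CPM. Newly formed oligodendrocytes held 121, 147, 37.7 and 25.4 CPM from only 11, 16, 2 and 1 UMIs. These classes overlapped, and their fitted difference was 0.21 ± 0.28 (adjusted p = 0.691, 22.1% of all genes called), which turned to -0.05 with DESeq2-type size factors. The striatal neurons of the direct pathway (55.8 ± 5.00 CPM), of the indirect pathway (52.6 ± 13.7 CPM) and those led by Zfp521 (52.1 ± 5.53 CPM) came next. Rorb middle layer neurons were lowest, at 16.9 ± 3.77 CPM, around the near-empty level. Oligodendrocytes were above 19 of the other 20 classes in the fit. The most similar orders were those of Cipc (r = 0.854), Prima1 (0.850) and Sik3 (0.834), all highest in oligodendrocytes.

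Atp11b, a flippase of endosomes and recycling vesicles (chr3:35754106-35856276, plus strand, GRCm38), had its highest levels in neurons. Excitatory neurons led by Il1rapl2 held 189, 190, 209 and 198 CPM (196 ± 9.37). The interneurons with Vip and Lamp5 held 219, 174, 167 and 168 CPM, and those with Sst and Pvalb held 184, 162, 180 and 169 CPM. The Vip and Lamp5 range overlapped with both others, while the Il1rapl2-led neurons lay above the Sst and Pvalb interneurons in every library. The first pair differed by 0.27 ± 0.13 (adjusted p = 0.144, 25.5% of all genes called). Layer 5 neurons stood at 125 ± 17.7 CPM, upper layer neurons at 95.1 ± 6.54 CPM and striatal neurons of the indirect pathway at 67.2 ± 7.30 CPM. The lowest class was microglia, at 37.8, 71.7, 54.2 and 69.0 CPM (58.2 ± 15.6), against 34.3 ± 3.30 CPM in near-empty barcodes. The most similar orders were those of Kif1a (r = 0.881), a motor protein that carries synaptic vesicle precursors along axons, Nek1 (0.832) and Ggt7 (0.820).

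**Figure D2:**
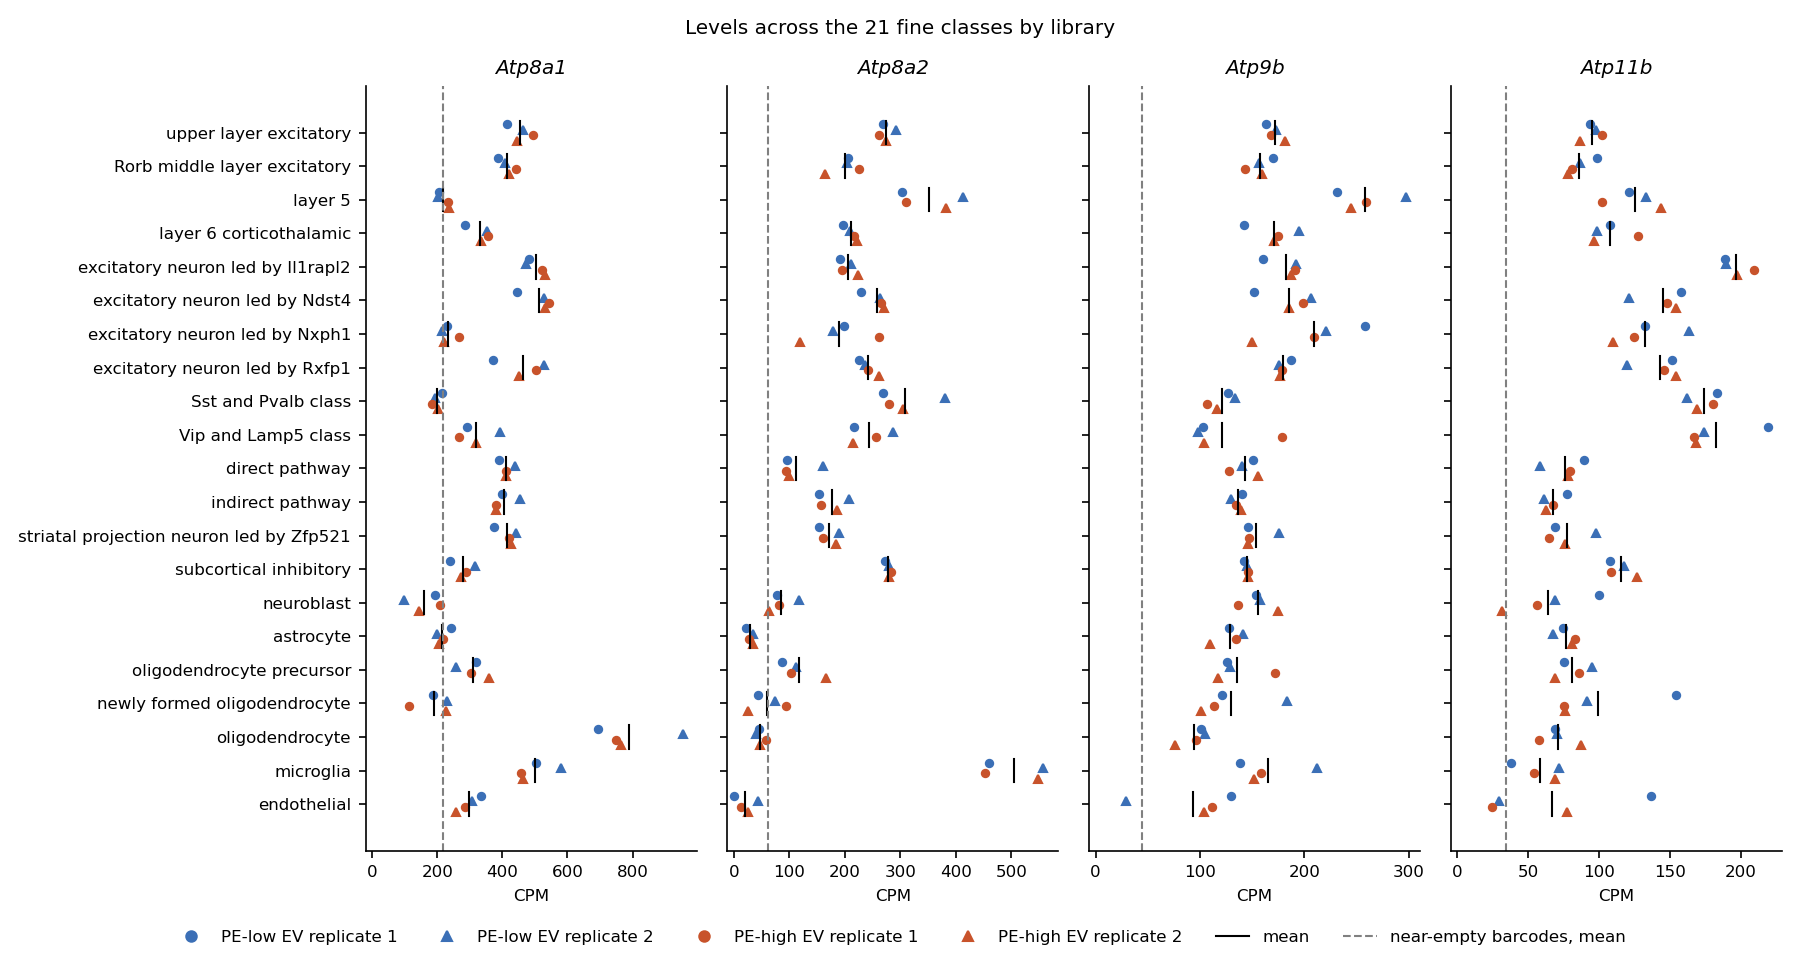
Level of Atp8a1, Atp8a2, Atp9b and Atp11b in the 21 fine classes, in CPM, with the libraries as points (circles and triangles for replicates 1 and 2, blue for PE-low EV and orange for PE-high EV), means as black bars and the mean of near-empty barcodes as dashed lines. Layer 5 neurons were among the lowest neurons for Atp8a1 (219 CPM) and the highest for Atp8a2 (352 CPM) and Atp9b (259 CPM).

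Atp10a, a flippase of phosphatidylcholine (chr7:58656166-58829420, plus strand, GRCm38), had 1 class far above the others. Endothelial nuclei held 1055, 726, 594 and 479 CPM (713 ± 249), from 170, 99, 48 and 37 UMIs. The excitatory neurons led by Nxph1 came next at 52.9, 21.4, 65.5 and 40.0 CPM, followed by layer 5 neurons (24.1 ± 9.30 CPM) and subcortical inhibitory neurons (19.0, 27.0, 17.3 and 20.4 CPM). The lowest endothelial library was above every library of every other class, and near-empty barcodes held 4.06 ± 0.521 CPM. The fitted difference from the Nxph1-led neurons was 3.79 ± 0.30 (adjusted p = 1.48e-22, 46.3% of all genes called) and 3.65 without PE-low EV replicate 1. Upper layer neurons (1.04 ± 0.707 CPM), astrocytes (1.19 ± 0.863 CPM) and oligodendrocytes (1.75 ± 1.54 CPM) were at or under the near-empty level. Endothelial nuclei held 0.852%, 0.767%, 0.573% and 0.553% of all UMIs of the kept nuclei. They held 36.4% (95% Wilson interval 32.2% to 40.9%), 21.3% (17.8% to 25.2%), 22.0% (17.0% to 28.0%) and 18.2% (13.5% to 24.1%) of the Atp10a UMIs, where the intervals cover counting error only.

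The endothelial level of Atp10a was found in all 3 endothelial clusters. In the Slco1a4-led cluster, PE-low EV replicate 1 held 169 Atp10a UMIs in 189 nuclei (1056 CPM), and the other libraries held 0, 5 and 1 UMIs in 9, 11 and 12 nuclei. In the larger Cxcl10-led cluster the level was 845 CPM (90 UMIs), 556 CPM (26 UMIs) and 501 CPM (23 UMIs) in the other 3 libraries, and in the smaller it was 370 CPM (9 UMIs), 600 CPM (17 UMIs) and 519 CPM (13 UMIs). The endothelial marker Flt1 stood at 3598, 3152, 2488 and 2691 CPM in the class, against 37.1 CPM over all kept nuclei. Cldn5, a tight junction gene, stood at 1346, 66.0, 223 and 220 CPM, against 7.54 CPM, and its mean was carried by PE-low EV replicate 1. Genes with the most similar order over classes were Rock1 (r = 0.808), Dnah3 (0.808) and Gkn3 (0.798), each highest in endothelial nuclei.

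**Figure D3:**
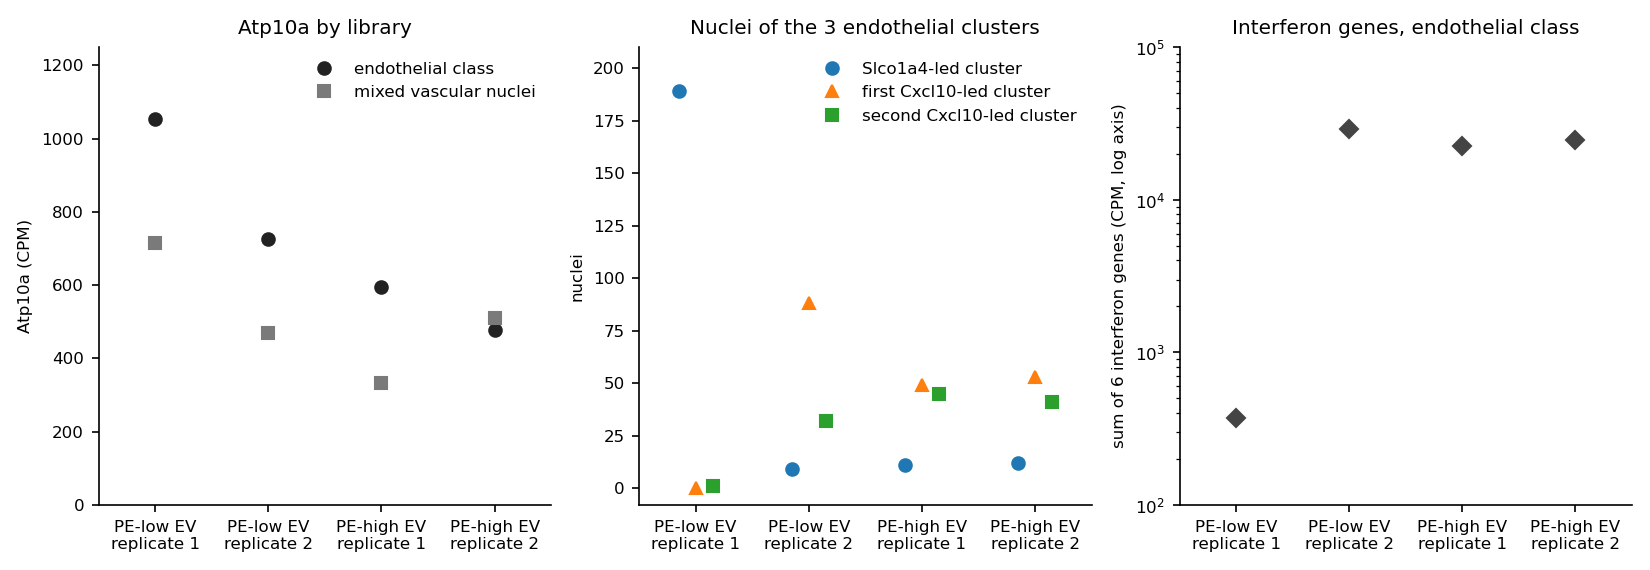
Left, Atp10a in CPM in the endothelial class (black circles) and in unnamed nuclei with mixed vascular markers (grey squares) of each library. Middle, nuclei of each library in the 3 endothelial clusters. Right, summed level of 6 interferon genes in the endothelial class (CPM, log axis). PE-low EV replicate 1 held 189 of the nuclei of the Slco1a4-led cluster and had the lowest interferon sum (372 CPM) and the highest Atp10a level (1055 CPM).

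Atp9a, which acts in endosomal recycling (chr2:168634438-168742409, minus strand, GRCm38), was lowest in astrocytes, endothelial nuclei and microglia. In the fit with all 4 libraries, astrocytes and microglia were each below 18 of the other 20 classes and endothelial nuclei below 17. Sst and Pvalb interneurons were below 13 and Vip and Lamp5 interneurons below 12. Of its class pairs 39.5% were called, against 35.6% over all genes. Class means ran from 77.0 ± 5.19 CPM in astrocytes to 174 ± 24.5 CPM in newly formed oligodendrocytes (209, 165, 170 and 152 CPM). All of them were under the level of near-empty barcodes (220 ± 13.5 CPM), and with free RNA subtracted newly formed oligodendrocytes were still highest (148 CPM). The highest class and the next, neuroblasts at 123, 158, 185 and 174 CPM, overlapped and differed by 0.29 ± 0.26 (adjusted p = 0.564, 17.0% of all genes called). The most similar orders were those of Cnot3 (r = 0.785), Cdc42se2 (0.781) and Ankrd28 (0.775), all highest in newly formed oligodendrocytes.

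Atp9b, the other member of this branch, found at the trans-Golgi network (chromosome 18, minus strand), was highest in layer 5 neurons. Its level there was 232, 298, 259 and 245 CPM (259 ± 28.5), against 44.2 ± 4.75 CPM in near-empty barcodes. The Nxph1-led excitatory neurons held 258, 221, 210 and 150 CPM and overlapped with layer 5. The fitted difference was 0.43 ± 0.16 (adjusted p = 0.0794, 13.3% of all genes called), and it missed the threshold with DESeq2-type size factors (0.37, adjusted p = 0.148), without a filter on low genes (0.46, adjusted p = 0.123) and without scaling factors (0.25, adjusted p = 0.416). It also missed it without PE-low EV replicate 2 (0.40), PE-high EV replicate 1 (0.49) or PE-high EV replicate 2 (0.31). Oligodendrocytes (94.5 ± 13.0 CPM) and endothelial nuclei (130, 29.3, 111 and 104 CPM) were lowest. The most similar orders were those of Cdc27 (r = 0.830), Ltk (0.824) and Pcsk5 (0.815).

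Tmem30a, the subunit gene (chr9:79768943-79793507, minus strand, GRCm38), was highest in endothelial nuclei, at 199, 249, 272 and 207 CPM (232 ± 34.9). Microglia held 170, 174, 174 and 161 CPM and oligodendrocytes 138, 163, 171 and 191 CPM, so the endothelial libraries did not overlap with either. In the fit with all 4 libraries, endothelial nuclei were above 19 of the other 20 classes, and their difference from oligodendrocytes was not called. The fitted difference between endothelial nuclei and microglia was 0.52 ± 0.20 (adjusted p = 0.0360, 32.9% of all genes called), 0.66 without PE-low EV replicate 1, 0.42 without PE-low EV replicate 2 (adjusted p = 0.229) and 0.49 without PE-high EV replicate 1 (adjusted p = 0.106). Neurons were low, from 71.6 CPM in Rorb middle layer neurons to 108 ± 15.1 CPM in Vip and Lamp5 interneurons. Near-empty barcodes held 333 ± 22.1 CPM, above every class. Over the 21 classes, the log2 level of Tmem30a and the estimated share of free RNA had a Pearson r of 0.884, while r for the other members ran from -0.616 (Atp11b) to 0.274 (Atp11a). With free RNA subtracted, endothelial nuclei were still the highest class (161 CPM), and their difference from microglia was 3.0003 (adjusted p = 0.00247) in place of 0.52. Free RNA was estimated at 48.0% of the UMIs of microglia, so a large part of their Tmem30a level was subtracted. In a trial with 30% of free RNA mixed in, the estimates ran from 23.8% to 34.5%. The order of Tmem30a over classes was also most like those of the haemoglobin gene Hbb-bs (r = 0.967), Fkbp3 (0.957) and Eef1d (0.953).

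Among the members, the orders over the 21 classes were most alike for Atp8a2 and Atp9b (r = 0.693) and most opposed for Atp9b and Tmem30a (r = -0.677). These values describe class means that share 4 libraries and their free RNA, and they carry no test.

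The 7 pairs of related classes described next were chosen after the levels had been seen. Oligodendrocytes and their precursors differed in 5 of 8 members, with 3 higher and 2 lower in oligodendrocytes, against 38.2% of all genes called. Atp8a1 rose from 310 ± 42.2 CPM in precursors to 790 ± 114 CPM in oligodendrocytes (1.36 ± 0.11, adjusted p = 2.65e-23). Atp11a rose from 43.9 ± 8.31 to 102 ± 26.9 CPM (1.24 ± 0.20, adjusted p = 1.26e-07), with no overlap between the libraries of these classes. Tmem30a was higher by 0.46 ± 0.15. In the other direction, Atp8a2 fell from 87.0, 112, 103 and 166 CPM in precursors to 45.5, 40.1, 57.7 and 47.4 CPM in oligodendrocytes (-1.31 ± 0.19, adjusted p = 2.74e-09), and Atp9b was lower (-0.50 ± 0.15, and -0.35 with an adjusted p of 0.162 without PE-high EV replicate 1). The median over the 8 members was -0.07, and over all genes 0.01. Against newly formed oligodendrocytes, where 22.1% of all genes were called, Atp8a1 was higher in oligodendrocytes by 2.19 ± 0.18 (adjusted p = 1.83e-21) and Tmem30a by 0.70 ± 0.26, and the others were not called. The Tmem30a call was lost with DESeq2-type size factors (0.44, adjusted p = 0.295). The Atp8a1 level of newly formed oligodendrocytes (187, 229, 113 and 228 CPM) was under that of precursors (318, 258, 303 and 360 CPM) in every library.

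Microglia and astrocytes differed in 5 of 8 members, against 37.9% of all genes. Atp8a2 had the larger difference of the phosphatidylserine flippases, 504 ± 55.7 against 29.4 ± 6.34 CPM (3.88 ± 0.16, adjusted p = 1.09e-46), and Atp8a1 was higher by 0.99 ± 0.12. Atp11a (-0.85 ± 0.30) and Atp11b (-0.63 ± 0.22) were lower in microglia, although Atp11a was not called without PE-low EV replicate 2 (-0.60, adjusted p = 0.200) and Atp11b not without PE-low EV replicate 1 (-0.48, adjusted p = 0.132). The call of Atp10a (2.23 ± 0.97) rested on PE-low EV replicate 2, where microglia held 20.5 CPM against 0 to 3.87 CPM in the other libraries, and without it the difference was 0.88 (adjusted p = 0.731). Without PE-high EV replicate 1 it was 2.08 (adjusted p = 0.120). Defining microglial markers were high in the class, with Csf1r at 457 CPM and P2ry12 at 606 CPM, against 15.1 and 46.7 CPM over all kept nuclei.

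Endothelial nuclei and astrocytes, the cell types that face each other at the blood-brain barrier, differed in 4 of 8 members, against 40.5% of all genes. The median over all genes was -0.24 here with TMM factors and 0.02 with DESeq2-type size factors, so small differences are to be read against that shift. Atp10a was higher in endothelial nuclei by 8.93 ± 0.38 (adjusted p = 7.49e-46) and Tmem30a by 0.61 ± 0.18 (adjusted p = 0.00510). Without PE-low EV replicate 1 these differences were 8.75 and 0.76, and Atp11b, not called with all libraries (-0.16 ± 0.28), was lower in endothelial nuclei (-1.01, adjusted p = 0.0390). Atp8a1 was higher by 0.37 ± 0.16, a call lost without PE-low EV replicate 1 (0.35, adjusted p = 0.196), PE-low EV replicate 2 (0.30) or PE-high EV replicate 1 (0.39). Atp9b was lower (-0.61 ± 0.23), a call lost with DESeq2-type size factors (-0.32, adjusted p = 0.315) and without PE-low EV replicate 2 (-0.22, adjusted p = 0.588), while leaving out replicate 1 of PE-low EV gave -0.98 (adjusted p = 0.00861).

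Among neurons, layer 5 and upper layer excitatory neurons differed in 5 of 8 members, against 19.4% of all genes. Atp8a1 was lower in layer 5, at 206, 202, 233 and 236 CPM against 414, 463, 494 and 446 CPM (-1.03 ± 0.11, adjusted p = 1.36e-14). Atp9b was higher (0.57 ± 0.11, adjusted p = 1.19e-05), as was Atp10a, at 24.1 against 1.04 CPM (4.35 ± 0.56, adjusted p = 1.10e-10). Atp8a2 (0.34 ± 0.10) and Atp11b (0.38 ± 0.14) were also higher in layer 5, and both calls were lost without PE-high EV replicate 2 (0.28 and 0.25) and, for Atp8a2, without PE-high EV replicate 1 (0.28), or, for Atp11b, without PE-low EV replicate 1 (0.37). The libraries of layer 5 and upper layer neurons did not overlap for these 5 genes.

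The classes of interneurons differed in Atp8a1 and Atp8a2. Sst and Pvalb interneurons had less Atp8a1 than Vip and Lamp5 interneurons (-0.63 ± 0.12, adjusted p = 3.52e-05) and more Atp8a2 (0.38 ± 0.12, adjusted p = 0.0255), and no other member was called, against 14.0% of all genes. Over single clusters, Atp8a2 overlapped, at 183 and 320 CPM for Vip and Lamp5 and 345, 265 and 267 CPM for Sst and Pvalb interneurons. The Atp8a2 call was lost without PE-low EV replicate 2 (0.35, adjusted p = 0.108) and PE-high EV replicate 2 (0.31, adjusted p = 0.195), and both were lost at the stricter mitochondrial limit of 3%. In the striatum, neurons of the indirect pathway had more Atp8a2 than those of the direct pathway, at 153, 207, 158 and 186 CPM against 96.5, 160, 93.2 and 99.5 CPM (0.76 ± 0.12, adjusted p = 3.94e-07). The indirect value was the higher in each of the 4 libraries. Atp8a2 was the only member called, against 7.93% of all genes, and at the 3% limit the difference was 0.28 (adjusted p = 0.376). Clusters joined in the direct class differed, at 184 CPM (395 nuclei), 85.3 CPM (823 nuclei) and 24.2 CPM (362 nuclei) over the cluster. Those of the indirect class stood at 170, 176 and 150 CPM, all under the highest direct cluster. The part of these clusters in the difference was not tested.

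**Figure D4:**
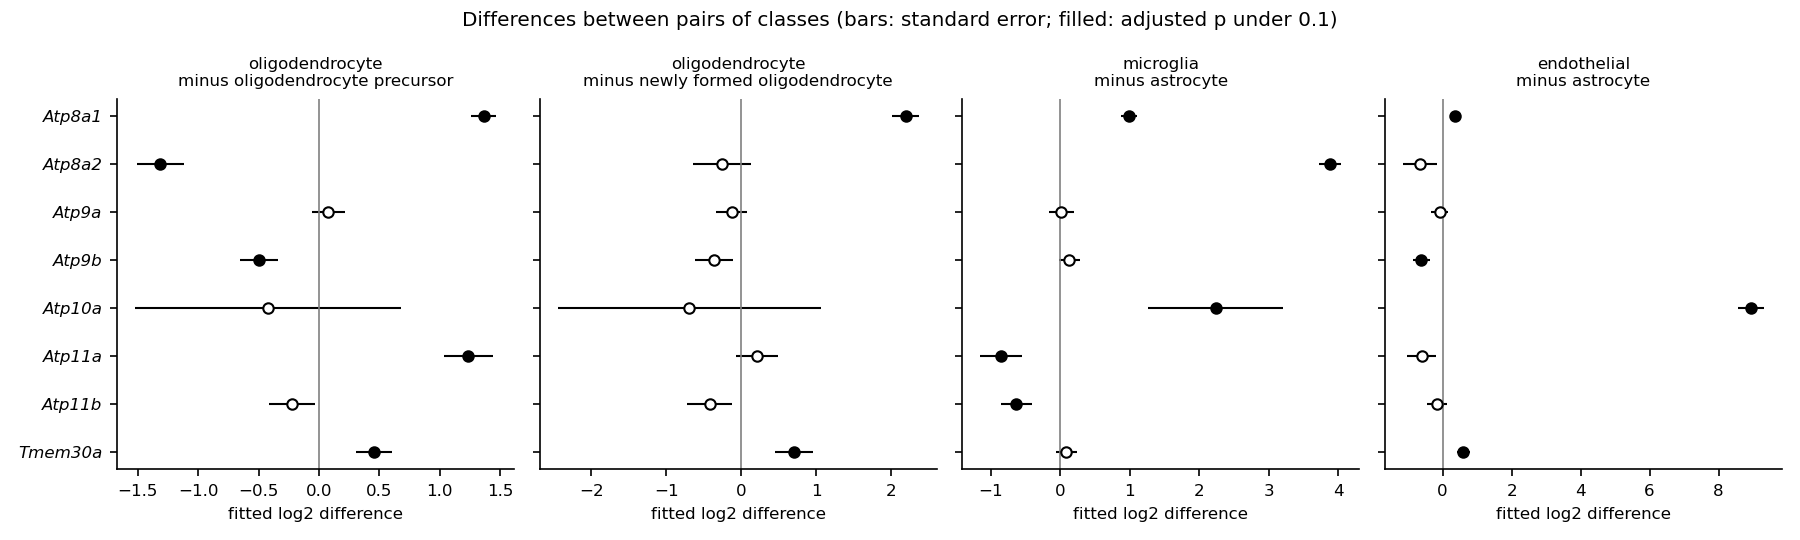
Fitted log2 difference of each of the 8 genes between 4 pairs of classes, with bars for the standard error and filled points for an adjusted p under 0.1. Between oligodendrocytes and their precursors, Atp8a1 (1.36) and Atp11a (1.24) lay to the right and Atp8a2 (-1.31) to the left of 0, and Atp10a (8.93) stood alone in endothelial nuclei against astrocytes.

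The other genes of the pathway were followed in the same pairs of classes, in lists of further P4-ATPases and subunits, partners of the ATP9 branch, scramblases, ABC lipid exporters and enzymes that make aminophospholipids. Of the 7 pairs of classes, oligodendrocytes and precursors had the most calls within these lists. Over all genes 38.2% were called there, and 40.5% in endothelial nuclei against astrocytes. Among other P4-ATPases, Atp10b (3.02 ± 0.53) and Atp8b1 (2.54 ± 0.33) were higher in oligodendrocytes and Atp8b2 (-1.43 ± 0.48) was lower. Of 12 scramblases tested of 17 listed, 2 were higher (Ano4 by 2.43 ± 0.13 and Vmp1, a scramblase of the endoplasmic reticulum, by 2.38 ± 0.12) and 6 were lower, among them Plscr4 (-4.44 ± 0.59), Ano6 (-2.89 ± 0.31), the scramblase behind phosphatidylserine exposure in platelets, and Xkr6 (-1.46 ± 0.17). Of 8 ABC exporters, 1 was higher (Abca2, an exporter known from myelinating cells, by 2.40 ± 0.18) and 3 were lower. Of 8 enzymes, 2 were higher, Pcyt2, which makes the CDP-ethanolamine used for PE, by 2.62 ± 0.19 and Cept1 by 0.47 ± 0.17. Of 4 partners of the ATP9 branch, Dop1b (0.74 ± 0.19) and Mon2 (0.46 ± 0.17) were higher. The lists' medians, for scramblases, ABC exporters, enzymes and partners of the ATP9 branch, were -1.11, -0.10, -0.04 and 0.35, beside 0.01 over all genes.

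In oligodendrocytes against newly formed oligodendrocytes, where 22.1% of all genes were called, Atp8b1 (2.14 ± 0.50), 3 of 12 scramblases (Vmp1, 2.22 ± 0.17, Atg9a and Ano4) and 2 of 8 ABC exporters (Abca2, 1.79 ± 0.27, and Abcg1) were higher. There 1 scramblase (Xkr6) and 3 of 8 enzymes (Etnk2, Selenoi and Pcyt2) were lower, and no partner of the ATP9 branch was called. In endothelial nuclei against astrocytes (40.5% of all genes called, values with all 4 libraries only), among 8 ABC exporters Abcb1a, the drug pump of the blood-brain barrier, was higher by 7.36 ± 0.33 and Abcg1 by 1.61 ± 0.40, while Abca1 (-1.41 ± 0.27) and Abcb4 (-1.66 ± 0.79) were lower. Of 12 scramblases 3 were higher, Plscr1 (3.71 ± 0.59), Ano6 (1.39 ± 0.30) and Ano4, and 1 was lower, Xkr6 (-1.88 ± 0.41). Of 8 enzymes 2 were higher and 1 was lower, and of 4 partners of the ATP9 branch 1 was higher and 1 was lower. Abcb1a was 1 of the markers that named the class, and its difference follows from that choice. In microglia against astrocytes (37.9% of all genes called), Atp8b1 (2.69 ± 0.54) was higher, Ano6 (1.17 ± 0.23) and Xkr4 (0.69 ± 0.20) were higher and Plscr4 (-7.39 ± 1.09) lower of 12 scramblases, and 3 of 8 ABC exporters were higher. Of 8 enzymes Cept1 (1.45 ± 0.18) was higher and Pcyt2 (-1.78 ± 0.24) and Etnk2 lower in microglia, and of 4 partners of the ATP9 branch Mon2 was higher and Dop1a and Dop1b were lower. In layer 5 against upper layer neurons (19.4% of all genes called), Atp8b1 was higher (3.81 ± 0.33), and of 12 scramblases Ano5 (3.48 ± 0.55) and Ano4 (2.97 ± 0.13) were higher and 3 were lower. There 2 of 8 ABC exporters (Abcb4 and Abcg1) were higher, and of 8 enzymes 1 was higher (Pcyt2, 0.49 ± 0.17) and 2 were lower (Etnk2 and Pisd). In Sst and Pvalb against Vip and Lamp5 interneurons (14.0% of all genes called), Atp8b1 (-2.79 ± 0.63) was lower and 5 of 12 scramblases were higher, from Xkr6 (0.36 ± 0.13) to Ano3 (1.57 ± 0.21), while Dop1b was higher and the ethanolamine kinase gene Etnk1 lower. Between both striatal pathways (7.93% of all genes called), Atp8b2 (1.03 ± 0.27) and Dop1b (0.42 ± 0.14) were higher and Ano4 (-0.43 ± 0.14) lower in the indirect pathway.

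The study's own question for these libraries was what vesicles rich in PE change in cell types of the 5XFAD brain. No flippase gene passed the test in any class. Of 88 combinations of 8 members and 11 broad classes, 68 had enough counts to be tested by edgeR's quasi-likelihood test within the class. At an adjusted p under 0.1, 0 passed, 0 had an unadjusted p under 0.05, and 0 passed with DESeq2. The fitted differences, PE-high EV minus PE-low EV, ran from -0.69 (Atp10a, endothelial nuclei) to 0.47 (Tmem30a, neuroblasts), and the smallest adjusted p was 0.830. The test called few genes of any kind. Of all genes tested, 0.00701% were called in excitatory neurons (1 of 14266), 0.642% in newly formed oligodendrocytes (9 of 1401), 0.0166% in oligodendrocyte precursors (1 of 6034) and 0% in each of the other 8 classes and in the sum over all kept nuclei. Unadjusted p under 0.05 was reached by 31 of 2453 genes in endothelial nuclei and by up to 568 of 12460 in striatal projection neurons among those 8 classes. DESeq2 called 0 genes in each of these and 20 in the sum over all kept nuclei, where edgeR had 869 genes at an unadjusted p under 0.05. Endothelial nuclei, with 105 to 190 nuclei per library, had enough counts for only 4 of the 8 members. In simulated counts with a log2 change of 1 in 200 genes, 173 to 197 of these genes passed the filter on low genes in each class. Of the changed genes that passed it, edgeR called 0% in endothelial nuclei. It called 35.0% to 46.9% in the glial classes and neuroblasts and 66.5% to 74.2% in the other neuronal classes. The lack of a call therefore does not show the lack of a change, least of all in endothelial nuclei.

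Atp10a in endothelial nuclei had the lowest fitted value. Its level was 1055 and 726 CPM in PE-low EV and 594 and 479 CPM in PE-high EV libraries, so the groups did not overlap (-0.69 ± 0.38, adjusted p = 1.00). The fit that left out replicate 1 of PE-low EV, which stands apart in these nuclei, gave -0.44 (adjusted p = 0.9901) among 3 calls in 2212 genes. Leaving out PE-low EV replicate 2 gave a difference of -0.96 (adjusted p = 0.0350) among 331 calls in 2355 genes tested, in a fit that sets the lone PE-low EV library with its different endothelial clusters against both others and assumes that it varies as they do. In the sum over all kept nuclei, Atp10a was 24.7 and 26.1 CPM in PE-low EV and 15.5 and 14.5 CPM in PE-high EV (-0.71 ± 0.12, adjusted p = 0.793). The share of UMIs from endothelial nuclei was also higher in both PE-low EV libraries (0.852% and 0.767%) than in both PE-high EV libraries (0.573% and 0.553%), and the part of this in the summed level was not tested. The share from subcortical inhibitory neurons, where Atp10a was also above the near-empty level, was 6.11% and 19.3% in PE-low EV and 4.91% and 8.39% in PE-high EV. Unnamed nuclei with mixed vascular markers, which also held Atp10a, numbered 82 and 52 in PE-low EV and 36 and 35 in PE-high EV. Nuclei like subcortical glutamatergic neurons, another source, numbered 17 and 108 against 1 and 29. The part of these nuclei in the summed level was not tested either. In excitatory neurons Atp10a was 8.34 and 7.07 CPM against 10.1 and 9.03 CPM (0.34 ± 0.23), which is the opposite order.

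The phosphatidylserine flippases showed small differences of mixed sign. The oligodendrocyte class joined 2 clusters that the libraries filled unevenly. They held 649, 255, 750 and 632 nuclei (Atp8a1 at 721 CPM over the cluster) and 452, 921, 164 and 208 nuclei (883 CPM), and the part of this split in the treatment values of oligodendrocytes was not tested. In excitatory neurons Atp8a1 was 381 and 436 CPM in PE-low EV and 455 and 436 CPM in PE-high EV (0.16 ± 0.11, adjusted p = 1.00), and a value of 0.29 (adjusted p = 0.0574) was found when PE-low EV replicate 2 was left out. The higher PE-low EV value and the lower PE-high EV value were equal after rounding. In oligodendrocytes Atp8a1 was 693 and 954 CPM against 748 and 766 CPM (-0.13 ± 0.21), with the PE-high EV libraries between the PE-low EV libraries. Microglial Atp8a2 was 460 and 557 CPM against 453 and 548 CPM (-0.01 ± 0.22). The spread between replicates of 1 group there was larger than the distance between groups. In oligodendrocyte precursors Atp8a2 was 87.0 and 112 CPM against 103 and 166 CPM (0.42 ± 0.29), and Atp9a was 162 and 151 CPM against 107 and 121 CPM (-0.45 ± 0.27, adjusted p = 0.911).

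The other members did not stand out. Atp11a was below 0 in 6 of 7 classes tested, from -0.39 ± 0.26 in oligodendrocytes (88.9 and 140 against 78.7 and 98.6 CPM) to 0.05 ± 0.22 in subcortical inhibitory neurons. In newly formed oligodendrocytes, which could not be tested for Atp11a, 121 and 147 CPM in PE-low EV stood against 37.7 and 25.4 CPM in PE-high EV, and the PE-high EV values rest on 2 and 1 UMIs. Atp11b ran from -0.12 ± 0.14 in striatal projection neurons to 0.23 ± 0.25 in astrocytes. Atp9b ran from -0.26 ± 0.22 in oligodendrocytes to 0.43 ± 0.73 in endothelial nuclei, where the second PE-low EV library held 29.3 CPM and the other libraries 104 to 130 CPM. Tmem30a was higher by 0.26 ± 0.21 in oligodendrocytes (138 and 163 against 171 and 191 CPM) and lower in inhibitory neurons (-0.20 ± 0.17). In striatal projection neurons all 8 members had a fitted value below 0, with a median of -0.09 beside -0.01 over all genes and values from -0.22 (Atp11a) to -0.02 (Atp9a).

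**Figure D5:**
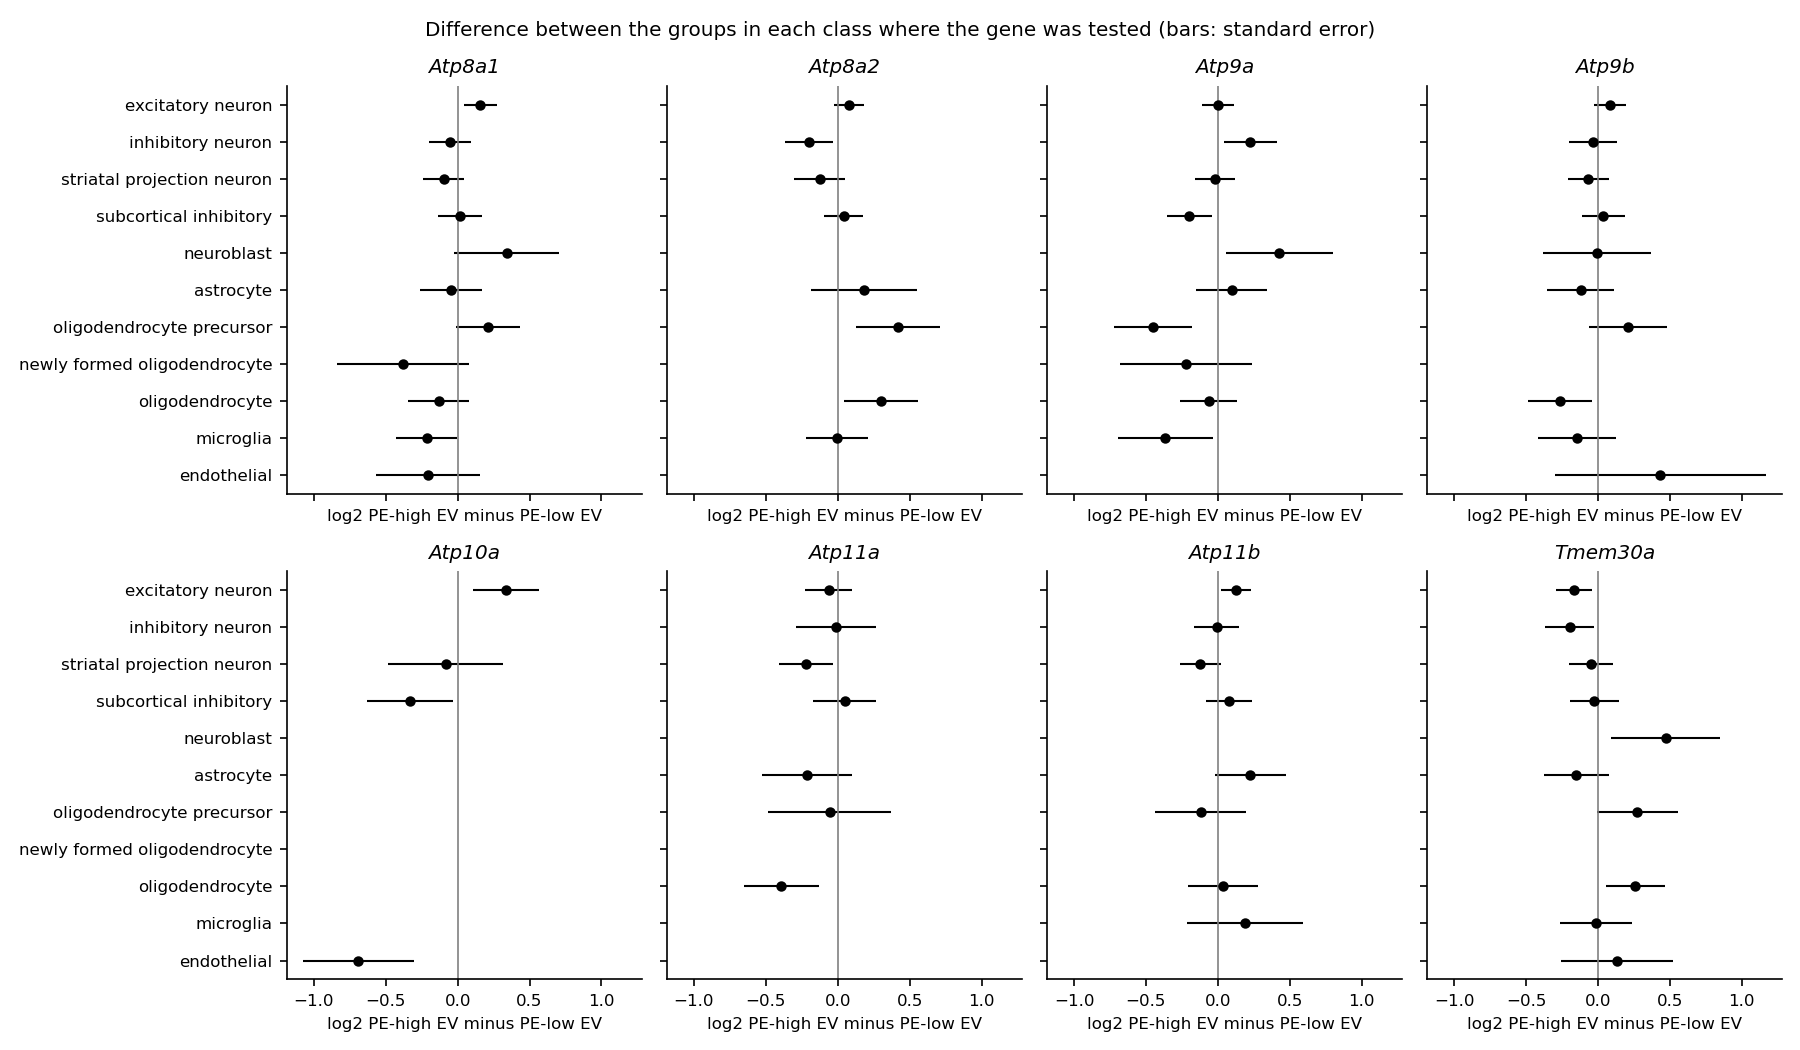
Fitted log2 difference between PE-high EV and PE-low EV libraries (2 per group) for each gene in each broad class where it was tested, with bars for the standard error. Values ran from -0.69 to 0.47 and none passed the threshold.

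The treatment difference was also compared between classes. Of 404 tests of a difference in the effect between 2 broad classes, over 55 pairs of classes, 0 were called for the members by edgeR and 22 had an unadjusted p under 0.05, while 0.0313% of all gene tests were called. In simulated counts of excitatory and striatal projection neurons, this test called 22.5% of 200 changed genes. Those counts had a fixed spread that was not estimated from these libraries, and genes were only raised, so the share may differ in the data. Without PE-low EV replicate 1, the effect on Atp8a2 differed between excitatory neurons and striatal projection neurons by 0.38. The other lists held no call by edgeR or DESeq2 in 34 tests of partners of the ATP9 branch, 90 of scramblases, 51 of ABC exporters and 56 of aminophospholipid enzymes, and an unadjusted p under 0.05 was reached in 0, 6, 1 and 3 of them.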

How the data were processed

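Single-nucleus libraries (10x Genomics 3' chemistry) were sequenced by the authors, who deposited unfiltered UMI count matrices made with Cell Ranger 7.1.0 on mm10. Whether intronic reads were counted is not given in the sources used here. The authors' matrices list every barcode, and their stated limits were 200 to 2500 genes and 3% mitochondrial UMIs per nucleus. The 4 libraries, 2 per group, held 41470611, 43272337, 32515094 and 29472021 UMIs, and this depth limits rare classes most.

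Nuclei were called again from the deposited counts by a knee and a test against near-empty barcodes (ranks 45000 to 90000). Kept nuclei had between 200 and 2500 genes and no more than 15% mitochondrial UMIs (3% was an alternative, because it left 1457 to 3457 nuclei per library). Clustering used 2000 variable genes without the genes described here, 30 components, 20 neighbours and the Leiden algorithm (resolution 1.5, 2 within neurons, scanpy 1.11.5). Classes were named from fixed markers, with thresholds (20 CPM, at least 3 markers, a ratio of 3) that were written after the clusters were seen. No doublet caller was run, and glial clusters with a median UMI count of 1.8 times or more that of the biggest cluster of their class were left unnamed. Counts were summed per library and class and tested with edgeR 4.0.16 (quasi-likelihood, TMM, filterByExpr, Benjamini-Hochberg, threshold 0.1), with at least 20 nuclei per library. Differences between classes were fitted over all 21 fine classes with the library as covariate, and treatment within each broad class. DESeq2 1.42.0 with its own size factors, other filters and each library left out were alternatives. The tests were tried on simulated counts with known changes, and the shares called are given with the treatment results.

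The members, gene lists and class pairs were chosen with earlier results of these data known. Named genes were the members, the 3 genes most alike in order over classes per member, and list genes called in the class pairs. Authors' comparison columns were not used. Promoter sequences came from RefSeq (GRCm38.p6), where 6 members had a window. Some items are not reported here, and the list of other P4-ATPases is therefore given by named genes without counts.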

Additional observations from a re-analysis of the deposited data

Results flagged for a closer look

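Signals of Atp10a were also found in nuclei outside the classes compared. Unnamed nuclei with mixed vascular markers (205 nuclei) held a mean of 507 CPM, with 715, 470, 334 and 510 CPM in the 4 libraries. An unnamed cluster of neurons led by Gm49678 and Fbxl7 (240 nuclei) held 206 CPM over its nuclei, with 189, 273, 200 and 139 CPM in the 4 libraries. Nuclei like subcortical glutamatergic neurons, too few in most libraries to be tested, held 75 Atp10a UMIs in PE-low EV replicate 2, where 108 of their 155 nuclei were found. Near-empty barcodes held 4.06 CPM.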

How the results depend on the processing

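The setting with the widest effect was the mitochondrial limit of 3% that the study states. It left 12 fine classes, without endothelial nuclei, microglia or layer 5 neurons, so that 3 of 8 members had the same highest class and 4 differences between neighbours were called. The highest class was the same for 7 members without an upper limit on genes, for 7 with free RNA subtracted and for 7 to 8 with a library left out (Atp9a was highest in neuroblasts, at 172 CPM, without PE-low EV replicate 1). Calls between neighbours, 24 in the report, were 9 without scaling factors (chosen after seeing the data) and 14 to 22 with a library left out. Between the highest class and the next, Atp8a2 in microglia passed the threshold with free RNA subtracted (0.59) and without scaling factors (0.55), with 0.03 to 0.20 when a library was left out. Atp9b in layer 5 lost the call with DESeq2-type size factors (0.37), without a filter on low genes (0.46) and without scaling factors (0.25), and ran from 0.31 to 0.60 with a library left out. Atp11a in oligodendrocytes over newly formed oligodendrocytes turned to -0.048 with DESeq2-type size factors, passed with free RNA subtracted (0.76) and ran from 0.03 to 0.48. Atp11b ran from 0.20 to 0.41 and passed without PE-low EV replicate 1 (adjusted p = 0.0404), and Tmem30a in endothelial nuclei lost the call without a filter (0.48), was 3.0003 (adjusted p = 0.00247) with free RNA subtracted and ran from 0.42 to 0.66. For the 3.0003 of Tmem30a, a large part of the microglial level had been subtracted. The range was 0.35 to 0.49 for Atp8a1, 0.02 to 0.39 for Atp9a and 3.65 to 4.31 for Atp10a, and none of these 3 gained or lost a call when a library was left out. No called difference between the named pairs of classes reversed under any setting tried. For treatment, calls for members were 0 to 2 with a library left out (2 without PE-low EV replicate 2), and calls in the difference between classes 0 to 1 (1 without PE-low EV replicate 1). Over all genes, 11 calls in the 11 classes became 2 with DESeq2, 178 without a filter, 1 at the 3% limit (5 classes), 3 at that limit within the classes of the report (6 classes, chosen after seeing the data), 1 without an upper limit on genes, 32 with free RNA subtracted, and 17 to 1719 with a library left out (1719 without PE-low EV replicate 1, 1255 without replicate 2, 17 without PE-high EV replicate 1 and 367 without replicate 2), where the lone library of a group is assumed to vary like the others. With the replicate number as a block there were 370 calls. The labels give same-numbered libraries no shared origin. Their deviations correlated by 0.117 over all kept nuclei, and 2 pairs are too few to show whether same-numbered libraries share a batch. Treatment values near 0 changed sign. Atp8a1 in oligodendrocytes became 0.00369 with free RNA subtracted and ran from -0.35 to 0.14 with a library left out (0.14 without PE-low EV replicate 2), and Atp11a there ran from -0.68 to 0.00550 (without that same library). Atp8a2 in microglia became 0.000956 with DESeq2, 0.000656 with DESeq2-type size factors, 0.00523 without a filter, 0.092 with free RNA subtracted, 0.13 without PE-low EV replicate 2 and 0.12 without PE-high EV replicate 1, with -0.14 as the lowest value when a library was left out. The cause of these changes was not tested. Depth limits newly formed oligodendrocytes, neuroblasts, endothelial nuclei and microglia most, where several members rest on fewer than 10 UMIs in a library.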
